A study of Mus musculus with 115 samples.

Results

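The 31 genes described here carry glucose into the heart cell, take it down glycolysis to pyruvate, convert pyruvate to lactate and export it, and store glucose as glycogen. They were taken by symbol from a list of these steps, and 26 of the 31 had a row among the 23930 rows of the count tables. Pfkfb2, Gapdh, Pgk1, Pgam1 and Eno1 were not analysed here. RNA from mouse hearts was copied to cDNA, amplified with Ion AmpliSeq primers, one short product per row, and read on an Ion Torrent S5 instrument. Wild type mice were C57BL/6JEiJ, the knockout mice were C57BL/6JEiJ Ant1-/-, and the knockout ND6 mice were C57BL/6JEiJ Ant1-/- ND6 P25L, which adds a change in the mitochondrial gene ND6 to the loss of Ant1. Ant1, whose gene symbol is Slc25a4, is the carrier through which heart mitochondria export ATP in exchange for ADP. Mice of all groups compared had received 2.5e+11 genomes of an adeno-associated virus into the pericardium, either AAV2/9Des-Gfp, called the control vector here, or AAV2/9Des-Gfp-mAnt1, called the Ant1 vector, so no group was free of virus. With the control vector there were 4 wild type, 3 knockout and 3 knockout ND6 hearts, and with the Ant1 vector 3, 4 and 3. For another 2 knockout ND6 hearts, 61 and 91, the vector label and the code in the title disagree, and they were kept apart from the groups compared, as were 2 libraries of wild type heart 80 with the same conflict. Hearts were collected 1 to 12 months after injection, and the month, age and sex of single hearts are not in the labels used here. The replicate is the heart, read from the number in the sample title, and its repeat libraries were summed. A number names a heart within its group only. The p-values measure the spread between these hearts.

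As background, a heart takes up glucose through the insulin-responsive carrier Slc2a4 (GLUT4) and the constitutive carrier Slc2a1 (GLUT1), traps it as glucose 6-phosphate with a hexokinase, and either burns it through glycolysis or links it into glycogen. Glycolysis makes a little ATP in the cytosol without the mitochondria, while most ATP of a healthy heart comes from fatty acids and pyruvate burned inside them. Lactate dehydrogenase turns pyruvate into lactate and back, and the monocarboxylate carriers move lactate across the cell membrane. Glycogen is primed by glycogenin, lengthened by glycogen synthase, branched by the branching enzyme and broken down by phosphorylase.

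Each library held 2893780 to 8531273 reads, with a median of 6591301.5, and each heart 16827518 to 54779297 reads. Levels are given as CPM, read counts scaled to library size after TMM normalisation, and a gene was called where the adjusted p of edgeR's quasi-likelihood test, Benjamini-Hochberg over all 15403 genes tested, was under 0.05. All 26 members with a row passed the filter on low counts. Slc25a4 matched the genotype in every heart: it stood at 8464 to 11380 CPM in the wild type hearts with the control vector, 0.33 to 2.03 CPM in the knockout hearts and 0.22 to 0.85 CPM in the knockout ND6 hearts. With the Ant1 vector it stood at 174 to 241 CPM in the knockout hearts and at 66.7, 0.732 and 55.6 CPM in knockout ND6 hearts 5, 8 and 37, so heart 8 lay at the level of hearts without the vector's gene. Cardiomyocyte markers, summed over 9 genes, lay between 63710 and 76540 CPM over the 6 groups. The 8 fibroblast markers summed to 2682 to 2812 CPM in control vector wild type hearts, 1786 to 2210 CPM in knockout and 2085 to 2257 CPM in knockout ND6 hearts. With the Ant1 vector these sums were 2422 to 2516 CPM in wild type and 2060 to 2456 CPM in knockout hearts. In knockout ND6 hearts with it they were 2019 to 2404 CPM, with 2 markers called higher and 1 lower than in wild type hearts. The part of these fibroblast shifts in the results below was not tested. The 8 adipocyte markers summed to 831 to 1267 CPM in control vector wild type hearts and to 682 to 1011 CPM in all other groups compared, with Adipoq, Lep and Ucp1 under 1 CPM in knockout ND6 hearts with the Ant1 vector and Lep in knockout hearts with the control vector. Their median log2 change against wild type was -1.32 in knockout and -0.771 in knockout ND6 hearts with the control vector, with 1 called lower in each. With the Ant1 vector it was 1.423 in knockout hearts, with none called, and -1.111 in knockout ND6 hearts, with 2 called lower. Between knockout ND6 and knockout hearts with that vector it was -2.481, with 2 called lower. In knockout ND6 hearts with the Ant1 vector, against wild type hearts with it, 4 of 8 endothelial markers were called higher and 1 lower (summed 856 to 922 CPM against 663 to 743 CPM), 3 of 8 skeletal muscle markers higher (20.4 to 56.1 CPM against 16.5 to 22.5 CPM) and 2 of 5 atrial markers lower (1277 to 4676 CPM against 4935 to 5477 CPM). In knockout ND6 hearts with the control vector 3 of 7 macrophage markers tested were lower (117 to 144 CPM against 166 to 226 CPM). In knockout hearts with that vector 2 of 7 smooth muscle and pericyte markers were lower (1010 to 1157 CPM against 1106 to 1173 CPM). Endothelial sums were higher with the Ant1 vector than with the control vector in knockout hearts (726 to 788 CPM against 629 to 652 CPM). The same held in knockout ND6 hearts (856 to 922 CPM against 651 to 705 CPM). The part of these shifts in the results was not tested either. In bulk RNA, fewer cells of a type and less RNA per cell cannot be told apart. The Y-linked gene Ddx3y lay between 196 and 273 CPM in every heart and Xist at 1.76 CPM or less. The libraries came in 14 tables of 8, and hearts of the 2 vectors shared no table, so a difference between vectors and a difference between tables cannot be told apart.

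In Ant1-/- hearts, members of glycogen metabolism and of the later steps of glycolysis were called higher than in wild type hearts. None of these members was called lower. Of 6 glycogen members tested 2, 3, 3 and 2 rose in the 4 comparisons with wild type described next, and of 4 members of lower glycolysis 2, 2, 3 and 3 rose. Of 4 members of lactate handling 1, 2, 2 and 1 fell and 0, 1, 1 and 0 rose. Of 10 members of upper glycolysis 2, 0, 1 and 2 rose and 0, 0, 1 and 0 fell, and of 2 glucose carriers 1, 0, 0 and 0 rose and 0, 1, 1 and 1 fell. In knockout against wild type hearts with the control vector, 7 of the 26 members rose and 1 fell, where 8.19% of all genes rose and 6.23% fell. Between knockout ND6 and wild type hearts with the same vector, 6 members rose and 3 fell, against 6.71% and 5.97% of all genes. With the Ant1 vector, 8 members rose and 4 fell in knockout hearts, against 5.37% and 4.53% of all genes, and 7 rose and 2 fell in knockout ND6 hearts, against 10.8% and 8.71%. The median log2 change of the 26 members was 0.11, 0.07, 0.14 and 0.11 in these 4 comparisons, while the median over all genes was -0.026, -0.01, 0.011 and -0.002. Gbe1, Gyg, Pgam2 and Tpi1 rose in all 4 comparisons. Ldha, Slc16a1 and Slc2a1 fell in 3 of the 4 each. Hk2, Pfkm, Pfkl, Aldoa, Aldoc, Pkm, Slc16a3, Pygm and Pygb passed in none. Leaving out 1 heart at a time, the count in knockout ND6 hearts with the control vector was 3 to 8, with 3 without heart 20 and 5 without heart 21. That in knockout hearts with the Ant1 vector was 6 to 9, with 6 without heart 21 or 81 and 7 without heart 83. The counts of 9 and 12 members with all hearts were thus not kept without any 1 heart. Comparisons with the same vector share their wild type hearts. The knockout comparisons under the 2 vectors share no heart, and 5 members were called in both, 62.5% of the 8 called with the control vector and 41.7% of the 12 called with the Ant1 vector. For all genes these shares were 30.4% and 44.2%. For the knockout ND6 comparisons, 6 members were called in both, 66.7% of the 9 called with either vector, against 55.4% and 36.1% of all genes called. The library tables that hold hearts of both genotypes pair 1 heart with wild type hearts, heart 35 with hearts 23, 24 and 25, heart 22 with heart 70 and heart 20 with hearts 80, 81 and 83 in the first 3 of these comparisons, and the fourth has no such table. These hearts also entered the calls, so their values are a description and no separate check. Within these tables the log2 difference of Gbe1 was 0.49, 0.48 and 0.35 and that of Ldha -0.51, -0.61 and -0.24.

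**Figure D1:**
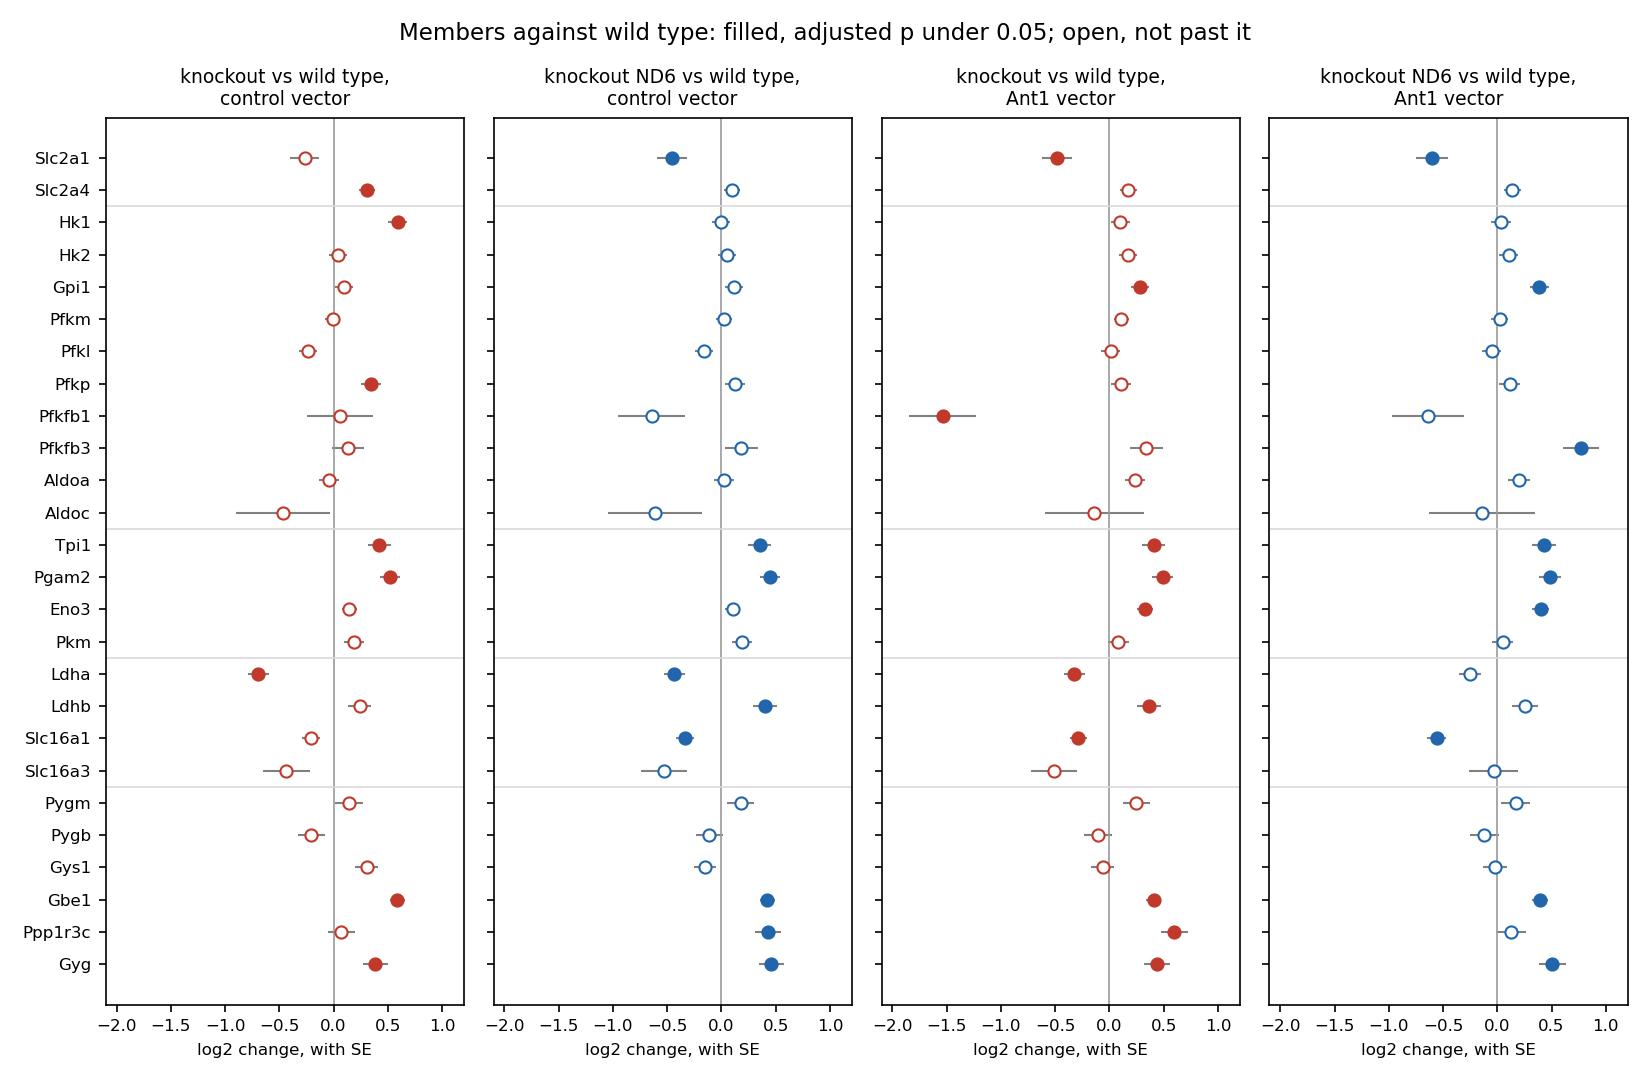
Log2 change of the 26 measured members against wild type in 4 comparisons, with 1 standard error. The horizontal axis is the log2 change, each row is a gene, grey lines part the roles from uptake at the top to glycogen at the bottom, and filled points passed an adjusted p of 0.05. Tpi1, Pgam2, Gbe1 and Gyg lie to the right and filled in all 4 panels.

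Promoter sequence is shown for 2 members that rose in all 4 comparisons and 2 of those that fell in 3, since their transcripts moved in opposite directions. The sequences are from RefSeq on GRCm38.p6, the same assembly as mm10, and run from 250 bases before the annotated start to 50 after it. Capitals mark ACGTG or GCGTG, the core that hypoxia-inducible factors are known to bind, on either strand. Where CACGTG, the E-box of MYC and of glucose-responsive factors, occurs, it contains ACGTG read on both strands and counts as 2 matches.
Gbe1, chr16:70313699-70313998, + strand: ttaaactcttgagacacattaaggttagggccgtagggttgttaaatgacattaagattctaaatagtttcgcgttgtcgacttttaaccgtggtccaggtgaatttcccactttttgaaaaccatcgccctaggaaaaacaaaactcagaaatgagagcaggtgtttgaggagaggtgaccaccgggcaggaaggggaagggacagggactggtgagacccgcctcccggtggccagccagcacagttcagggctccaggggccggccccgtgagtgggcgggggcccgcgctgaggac
Pgam2, chr11:5803747-5804046, - strand: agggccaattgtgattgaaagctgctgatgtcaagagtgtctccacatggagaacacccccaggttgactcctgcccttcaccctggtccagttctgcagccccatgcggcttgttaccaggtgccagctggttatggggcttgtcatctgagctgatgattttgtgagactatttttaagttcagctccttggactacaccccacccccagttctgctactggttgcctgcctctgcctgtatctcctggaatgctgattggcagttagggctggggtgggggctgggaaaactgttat
Ldha, chr7:46845554-46845853, + strand: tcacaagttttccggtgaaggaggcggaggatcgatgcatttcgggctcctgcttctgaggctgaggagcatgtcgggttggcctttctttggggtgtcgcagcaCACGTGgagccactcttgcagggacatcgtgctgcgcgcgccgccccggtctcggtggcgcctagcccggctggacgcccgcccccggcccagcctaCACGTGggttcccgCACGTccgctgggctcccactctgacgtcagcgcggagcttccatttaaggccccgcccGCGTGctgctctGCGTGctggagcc
Slc16a1, chr3:104638414-104638713, + strand: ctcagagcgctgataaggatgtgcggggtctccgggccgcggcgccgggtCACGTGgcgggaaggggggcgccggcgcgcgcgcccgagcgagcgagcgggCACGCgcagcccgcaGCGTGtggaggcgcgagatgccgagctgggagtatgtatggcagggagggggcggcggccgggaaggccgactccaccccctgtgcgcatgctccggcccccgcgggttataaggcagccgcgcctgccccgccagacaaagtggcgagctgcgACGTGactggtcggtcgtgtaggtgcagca
The Ldha window shown, 1 of 2 in the table, holds 7 matches and 2 CACGTG words, and the Slc16a1 window holds 5 matches and 1 CACGTG word. The Gbe1 and Pgam2 windows hold none. The other Ldha window (chr7:46846832-46847131, + strand) holds 2 GCGTG matches, no ACGTG and no CACGTG, and 56.7% of its bases are G or C. Their base composition differs too: 67.3% and 73.7% of the bases are G or C in the Ldha and Slc16a1 windows shown, and 54.3% and 53.3% in those of Gbe1 and Pgam2. Among the other members called in 3 or 4 comparisons, the window of Tpi1 holds 0 matches, that of Gyg 3 and that of Slc2a1 2. Of all 32851 promoter windows in the table, 43.8% hold ACGTG or GCGTG, 19.6% hold ACGTG, 32.4% hold GCGTG and 7.15% hold CACGTG. Over 25 members with a window, 26 of 38 windows (68.4%) hold ACGTG or GCGTG. A match describes the letters of the window and is no measurement of binding.

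Of the 2 glucose carriers, Slc2a1 fell in 3 of the 4 comparisons with wild type and Slc2a4 rose in 1. Slc2a1 (chr4:119108711-119137983, mm10) lay at 27.4 to 30.2 CPM in control vector wild type hearts, 22.9 to 25.3 CPM in knockout hearts and 19.8 to 22 CPM in knockout ND6 hearts. Levels of Slc2a1 with the Ant1 vector were 22.6 to 31.3 CPM in wild type, 18.1 to 22.8 CPM in knockout and 14.1 to 21.8 CPM in knockout ND6 hearts. It fell in knockout ND6 hearts with the control vector (log2 change -0.46 ± 0.14 (SE), adjusted p = 0.0299) and in both genotypes with the Ant1 vector (log2 change -0.48 ± 0.14 (SE), adjusted p = 0.0264 for knockout and log2 change -0.60 ± 0.15 (SE), adjusted p = 0.00656 for knockout ND6 hearts). Wild type hearts lay above the other genotypes within each vector, except that with the Ant1 vector knockout heart 27 lay above wild type heart 81. Slc2a4, the insulin-responsive carrier (chr11:69942539-69948188), lay at 319 to 373 CPM in control vector wild type hearts and at 419 to 425 CPM in knockout hearts (log2 change 0.31 ± 0.074 (SE), adjusted p = 0.00756). Every knockout heart was above every wild type heart. In the other 3 comparisons with wild type its log2 change was between 0.09 and 0.18 and did not pass. The fall of Slc2a1 passed in all alternatives for knockout ND6 hearts with the Ant1 vector, but in the other 2 comparisons it no longer passed without 1 of 5 single hearts, with adjusted p up to 0.128 and 0.147.

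Hexokinase 1 stood out in 1 group. Hk1 (chr10:62268855-62379908), the hexokinase that binds the outer mitochondrial membrane in most tissues, stood at 127, 114, 123 and 119.9 CPM in control vector wild type hearts 23, 24, 25 and 70, at 166, 189 and 192 CPM in knockout hearts 35, 36 and 38 and at 122, 119 and 121 CPM in knockout ND6 hearts 20, 21 and 22. Levels of Hk1 with the Ant1 vector were 120.0, 107 and 117 CPM in wild type hearts 80, 81 and 83, at 133, 133, 122 and 103 CPM in knockout hearts 20, 21, 22 and 27 and at 115, 117 and 120.3 CPM in knockout ND6 hearts 5, 8 and 37. Below, hearts are always given in this order. The 3 knockout hearts with the control vector were above all 17 other hearts compared. Hk1 rose in knockout against wild type hearts with the control vector (log2 change 0.59 ± 0.085 (SE), adjusted p = 7.54e-05) and kept its call in every alternative. Hk2, the insulin-regulated muscle hexokinase (chr6:82725025-82774454), stood at 421, 406, 410.1 and 460.0 CPM in wild type, 439, 439 and 431 CPM in knockout and 449, 458 and 409.6 CPM in knockout ND6 hearts with the control vector. Levels of Hk2 with the Ant1 vector were 395, 459 and 416 CPM, 463, 511, 489.7 and 446 CPM and 448, 398 and 519 CPM. The genotypes of Hk2 overlapped within each vector, and it passed in none of the 9 pairwise comparisons.

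Gpi1 rose in both Ant1-/- genotypes where the Ant1 vector was given. Gpi1 (chr7:34201330-34230336) turns glucose 6-phosphate into fructose 6-phosphate. Levels of Gpi1 with the Ant1 vector were 452, 478 and 428 CPM in wild type, 506, 565, 526 and 610.0 CPM in knockout and 560.3, 565 and 651 CPM in knockout ND6 hearts, and the wild type hearts lay below all others. It rose in knockout (log2 change 0.28 ± 0.084 (SE), adjusted p = 0.035) and knockout ND6 hearts (log2 change 0.39 ± 0.089 (SE), adjusted p = 0.00457). Levels of Gpi1 with the control vector were 509.5, 469, 459 and 499 CPM in wild type, 513, 558 and 477 CPM in knockout and 485, 537 and 549.7 CPM in knockout ND6 hearts, which overlapped. Whether the change of Gpi1 differs between vectors was tested in the same fit and did not pass (log2 change 0.19 ± 0.12 (SE), adjusted p = 0.475 for knockout and log2 change 0.27 ± 0.12 (SE), adjusted p = 0.431 for knockout ND6 hearts). With the library table as a covariate in limma voom both calls were lost (adjusted p = 0.374 and 0.299), and that in knockout hearts also without any 1 of hearts 21, 27, 80, 81 and 83.

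The phosphofructokinase subunits make the committed step of glycolysis. Pfkm, the muscle subunit, lay between 1089 and 1335 CPM over all groups and Pfkl, the liver subunit, between 55.9 and 82.8 CPM, and neither passed in any comparison. Pfkp, the platelet subunit, rose in knockout hearts with the control vector, at 102 to 111 CPM against 79 to 90.1 CPM (log2 change 0.34 ± 0.092 (SE), adjusted p = 0.0145). That call was lost without knockout heart 36 or 38 and with libraries a and b alone, with adjusted p up to 0.0628. Pfkfb1 and Pfkfb3 encode bifunctional enzymes that make and remove an activator of phosphofructokinase, a fructose bisphosphate other than the one phosphofructokinase itself makes. Pfkfb1 (chrX:150588229-150643878), the liver and muscle form, stood at 64.7, 64.1 and 62.7 CPM in wild type, 15.2, 17.2, 19.9 and 35.2 CPM in knockout and 49.1, 56.3 and 18.4 CPM in knockout ND6 hearts with the Ant1 vector. All 4 knockout hearts were below all 3 wild type hearts, and heart 37 lay among the knockout hearts while hearts 5 and 8 lay above them. It fell in those knockout hearts (log2 change -1.53 ± 0.31 (SE), adjusted p = 0.00282), the widest log2 change of any member in the 9 pairwise comparisons, and kept the call in every alternative. With the control vector Pfkfb1 stood at 55.2, 52.9, 62.1 and 35.4 CPM, 61.2, 45.4 and 54.2 CPM and 30.8, 37 and 30.9 CPM, and wild type heart 70 lay with the knockout ND6 hearts.

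Pfkfb3, the inducible form of the same enzyme family (chr2:11471433-11554077), stood at 12.8, 10.9 and 13.6 CPM in wild type, 16.1, 15.6, 15.8 and 15.5 CPM in knockout and 18.6, 26.5 and 18.7 CPM in knockout ND6 hearts with the Ant1 vector. It rose in the knockout ND6 hearts (log2 change 0.77 ± 0.16 (SE), adjusted p = 0.00218), where heart 8 was highest, and passed in all alternatives. Levels of Pfkfb3 with the control vector were 12.3, 11.9, 18.5 and 16.1 CPM, 16.9, 14 and 17.5 CPM and 18.2, 14.7 and 17.3 CPM in the 3 genotypes, which overlapped. The aldolase of muscle, Aldoa, lay between 2212 and 3392 CPM and passed in no comparison. Aldoc, the brain form, lay at 1.3 CPM or less in every heart, and neither it nor its ratio to Aldoa passed.

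In lower glycolysis, Tpi1 and Pgam2 rose in each comparison of Ant1-/- hearts with wild type, and Eno3 rose with the Ant1 vector. Pgam2 (chr11:5801640-5803733), the muscle phosphoglycerate mutase, stood at 815, 870.1, 826 and 647 CPM in wild type, 1073, 1222 and 1097 CPM in knockout and 1079.5, 1106 and 1041 CPM in knockout ND6 hearts with the control vector. Levels of Pgam2 with the Ant1 vector were 726, 675 and 756 CPM, 1093, 1072, 995 and 884 CPM and 1094, 1022 and 909 CPM. Every Ant1-/- heart was above every wild type heart, across both vectors. It rose in knockout (log2 change 0.52 ± 0.095 (SE), adjusted p = 0.000778) and knockout ND6 hearts (log2 change 0.45 ± 0.095 (SE), adjusted p = 0.00369) with the control vector, and likewise with the Ant1 vector (log2 change 0.49 ± 0.097 (SE), adjusted p = 0.00232 and log2 change 0.49 ± 0.10 (SE), adjusted p = 0.00211). All 4 calls held in every alternative.

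Tpi1 (chr6:124810586-124814296), which interconverts the 2 triose phosphates, lay at 1097 ± 51.8 CPM in wild type hearts with the control vector (SD, n = 4), against 1468 ± 55.6 CPM in knockout and 1399 ± 60 CPM in knockout ND6 hearts (SD, n = 3 each). Means of Tpi1 with the Ant1 vector were 997 ± 73.4 CPM (n = 3), 1322 ± 191 CPM (n = 4) and 1345 ± 229 CPM (n = 3). Wild type hearts were below the others within each vector. Its log2 change lay between 0.35 and 0.43 in the 4 comparisons, with adjusted p between 0.00852 and 0.0291. With libraries a and b alone all 4 of its calls were lost, with adjusted p of 0.0977 to 0.229. Leaving out 1 heart ended 3 of them: hearts 20, 21, 22, 24, 25 or 70 in knockout ND6 hearts with the control vector, hearts 21, 22 or 81 in knockout and hearts 5 or 81 in knockout ND6 hearts with the Ant1 vector. Without such a heart the adjusted p of Tpi1 was at most 0.122. Ldha, Aldoa and Tpi1 are known to have processed pseudogenes in the mouse, and how the counting treated reads that match both is not stated in these sources.

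Eno3, the muscle enolase (chr11:70657202-70662513), stood at 1012, 999 and 1024 CPM in wild type, 1187, 1252, 1237 and 1402 CPM in knockout and 1349.5, 1187 and 1469.7 CPM in knockout ND6 hearts with the Ant1 vector, and the wild type hearts lay below all others. It rose in knockout (log2 change 0.33 ± 0.074 (SE), adjusted p = 0.00686) and knockout ND6 hearts (log2 change 0.40 ± 0.078 (SE), adjusted p = 0.00125), and both calls held in every alternative. Levels of Eno3 with the control vector were 1189, 1135, 1114 and 1031 CPM, 1209, 1280.4 and 1218 CPM and 1170.5, 1228 and 1201 CPM, and did not pass, although every knockout heart was above every wild type heart. Eno3 and Pgam2 are also skeletal muscle transcripts, and the part in their levels of the skeletal muscle markers, summed at 20.4 to 56.1 CPM in knockout ND6 hearts with the Ant1 vector, was not tested. Pkm, the muscle pyruvate kinase that closes glycolysis, lay between 1609 and 2239 CPM and passed in no comparison.

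In lactate handling, Ldha and Slc16a1 fell in 3 comparisons each and Ldhb rose in 2. Ldha (chr7:46841475-46855627), the lactate dehydrogenase subunit that predominates in skeletal muscle, stood at 507, 442, 465 and 496 CPM in wild type, 330.2, 298 and 257 CPM in knockout and 381, 352 and 326 CPM in knockout ND6 hearts with the control vector, and no wild type heart overlapped the others. Levels of Ldha with the Ant1 vector were 457, 502 and 385.5 CPM, 376, 366, 336 and 354 CPM and 342, 403 and 386.3 CPM, where wild type heart 83 lay below knockout ND6 hearts 8 and 37. It fell by 0.69 on the log2 scale in knockout (adjusted p = 5.2e-05) and by 0.44 in knockout ND6 hearts (adjusted p = 0.00474) with the control vector, in every alternative. The fall of 0.32 in knockout hearts with the Ant1 vector (adjusted p = 0.0337) was lost in 9 of 17 alternatives, hearts 21, 22, 27, 80 and 81 left out among them, and the log2 change of -0.25 in knockout ND6 hearts did not pass (adjusted p = 0.0926). Ldhb, the heart subunit (chr6:142490249-142507957), stood at 634, 654, 665 and 543 CPM in wild type, 732, 724 and 753 CPM in knockout and 841, 807 and 819 CPM in knockout ND6 hearts with the control vector. Levels of Ldhb with the Ant1 vector were 689, 641 and 639 CPM, 993, 869, 839.9 and 672 CPM and 894, 813 and 639 CPM, and heart 27 lay within the wild type range and heart 37 just under it. With the control vector no wild type heart reached the other genotypes. Ldhb rose in knockout ND6 hearts with the control vector (log2 change 0.40 ± 0.11 (SE), adjusted p = 0.0193) and in knockout hearts with the Ant1 vector (log2 change 0.36 ± 0.11 (SE), adjusted p = 0.0413). Leaving out heart 20, 21, 22 or 70 ended the first call, with adjusted p up to 0.0685, and leaving out heart 20, 21, 22, 80, 81 or 83 the second, with adjusted p up to 0.139. With libraries a and b alone both calls were lost, the first with an adjusted p of 0.161. The second was also lost under upper quartile scaling and with only the compared groups in the fit.

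Slc16a1 (chr3:104638668-104658462), the monocarboxylate carrier MCT1 that takes up and releases lactate, stood at 590.4, 486, 483 and 517 CPM in wild type, 435, 455 and 459 CPM in knockout and 387, 435 and 411 CPM in knockout ND6 hearts with the control vector. Levels of Slc16a1 with the Ant1 vector were 465, 498 and 498 CPM, 372, 394, 455 and 378 CPM and 329, 318 and 343 CPM. Within each vector every wild type heart was above every Ant1-/- heart. It fell in knockout ND6 hearts with the control vector (log2 change -0.34 ± 0.081 (SE), adjusted p = 0.00882) and in knockout (log2 change -0.28 ± 0.081 (SE), adjusted p = 0.0274) and knockout ND6 hearts with the Ant1 vector (log2 change -0.56 ± 0.087 (SE), adjusted p = 0.000149), while the knockout hearts with the control vector did not pass (log2 change -0.21 ± 0.081 (SE), adjusted p = 0.0917). The call in knockout ND6 hearts with the Ant1 vector held in every alternative. That in knockout ND6 hearts with the control vector was lost without heart 20 (adjusted p = 0.0561), and that in knockout hearts in 7 of 17 alternatives, hearts 20, 21, 27, 81 and 83 among them. Slc16a3, the lactate exporter MCT4 (chr11:120948480-120960868), stood at 2.8, 2.94, 3.97 and 6.19 CPM in wild type, 3.01, 2.89 and 2.91 CPM in knockout and 2.51, 3.06 and 2.68 CPM in knockout ND6 hearts with the control vector, and at 3.18, 4.89 and 4.11 CPM, 2.9, 3.33, 2.45 and 2.83 CPM and 3.94, 3.77 and 4.28 CPM with the Ant1 vector. Wild type heart 70 was highest, both genotypes overlapped wild type within each vector, and no call was made.

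Among glycogen members, Gbe1 and Gyg rose in all 4 comparisons with wild type and Ppp1r3c in 2. Gbe1 (chr16:70313949-70569716), the branching enzyme, stood at 54.3, 51.4, 53.6 and 54.6 CPM in wild type, 74.7, 84.7 and 81.6 CPM in knockout and 66.3, 72.3 and 76.5 CPM in knockout ND6 hearts with the control vector. Levels of Gbe1 with the Ant1 vector were 51.7, 50.7 and 54 CPM, 66.5, 72, 71.2 and 67.4 CPM and 69.4, 68 and 68.2 CPM. All 13 Ant1-/- hearts, with either vector, were above all 7 wild type hearts. Gbe1 rose in knockout (log2 change 0.59 ± 0.068 (SE), adjusted p = 4.86e-06) and 1.34-fold in knockout ND6 hearts (log2 change 0.42 ± 0.068 (SE), adjusted p = 0.000287) with the control vector, and 1.33-fold (log2 change 0.41 ± 0.069 (SE), adjusted p = 0.000599) and 1.31-fold (log2 change 0.40 ± 0.073 (SE), adjusted p = 0.000808) with the Ant1 vector. The last of these, whose groups share no library table, did not pass with the table as a covariate (log2 change 0.28, adjusted p = 0.148), and the other 3 held in every alternative. Gyg (chr3:20122084-20155317), the glycogenin that primes glycogen, lay at 119.9 ± 17.5 CPM in wild type hearts with the control vector (SD, n = 4), against 156 ± 6.64 CPM in knockout and 165 ± 20.3 CPM in knockout ND6 hearts (SD, n = 3 each). Means of Gyg with the Ant1 vector were 116 ± 5.2 CPM (n = 3), 158 ± 20.2 CPM (n = 4) and 165 ± 15.8 CPM (n = 3), and no wild type heart reached another genotype's hearts within a vector. Its log2 change lay between 0.38 and 0.51, with adjusted p from 0.00671 to 0.0273. The knockout call with the control vector was lost without any 1 of hearts 35, 36, 38 and 70, with adjusted p up to 0.109. The call in knockout ND6 hearts with that vector was lost without heart 20 (adjusted p = 0.0883), and that in knockout hearts with the Ant1 vector without heart 20, 81 or 83, with adjusted p up to 0.0822.

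Ppp1r3c (chr19:36731731-36736653), a targeting subunit that brings protein phosphatase 1 to glycogen and so favours its synthesis, stood at 349, 469, 352 and 392.2 CPM in wild type, 348, 425 and 458 CPM in knockout and 540.2, 549 and 486 CPM in knockout ND6 hearts with the control vector. Levels of Ppp1r3c with the Ant1 vector were 274, 311 and 257 CPM, 489, 442, 413 and 357 CPM and 269, 295 and 356 CPM. The group above wild type was thus the knockout ND6 group with the control vector (log2 change 0.43 ± 0.12 (SE), adjusted p = 0.0246) and the knockout group with the Ant1 vector (log2 change 0.60 ± 0.12 (SE), adjusted p = 0.00375). The first call was lost with the library table as a covariate (log2 change 0.22, adjusted p = 0.178) and without heart 20, 21, 23 or 25, and the second held in every alternative. Gys1, the muscle glycogen synthase, lay at 134 to 147 CPM in control vector wild type and 169 to 176 CPM in knockout hearts, and that difference did not pass (log2 change 0.30 ± 0.10 (SE), adjusted p = 0.0527). Pygm and Pygb, the muscle and brain phosphorylases that break glycogen down, lay between 1120 and 2120 CPM and between 349 and 499 CPM and passed in no comparison.

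**Figure D2:**
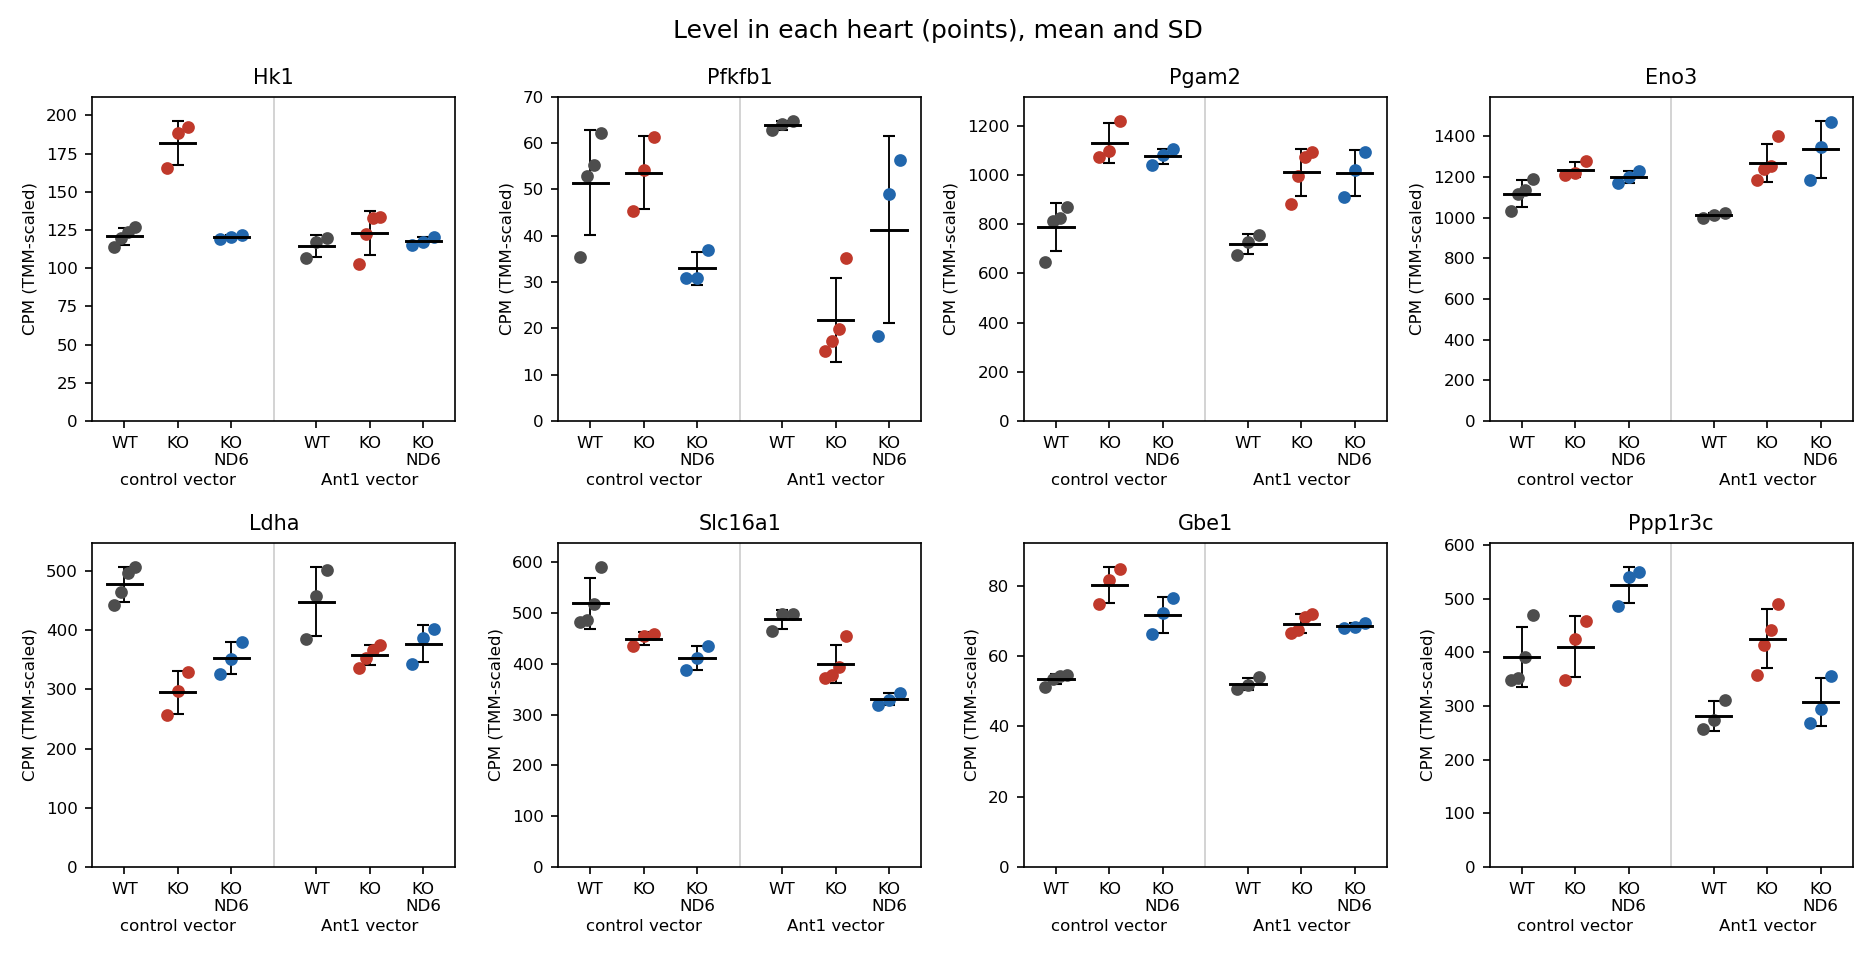
Level of 8 members in each heart, in CPM on the vertical axis, for wild type (WT), knockout (KO) and knockout ND6 hearts with each vector. Points are hearts, and bars are the mean and SD of 3 or 4 hearts. Hk1 is high in the 3 knockout hearts with the control vector, at 166 to 192 CPM, and Gbe1 is above wild type in every Ant1-/- group.

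Ratios of 2 members with the same role within a heart do not depend on library size. Each amplicon has its own efficiency, so such a ratio says nothing of how many transcripts of each there are and was compared between genotypes only, over both vectors, by a two-sided exact permutation test with labels permuted within a vector. Of 9 pairs planned, 7 had both genes, and the 3 genotype comparisons gave 21 tests, of which 4 passed after Benjamini-Hochberg adjustment. The log2 ratio of Slc2a1 to Slc2a4 was -3.55 ± 0.15 (SD, n = 7) in wild type hearts, -4.17 ± 0.12 (SD, n = 7) in knockout hearts and -4.19 ± 0.28 (SD, n = 6) in knockout ND6 hearts. It was 1.53-fold lower in knockout (exact p = 0.000816, adjusted p = 0.00857) and 1.56-fold lower in knockout ND6 than in wild type hearts (exact p = 0.00143, adjusted p = 0.01). Wild type hearts overlapped neither other genotype, and these are the smallest p the arrangements allow. Knockout and knockout ND6 hearts overlapped. The log2 ratio of Ldha to Ldhb was -0.46 ± 0.20 (SD, n = 7) in wild type, -1.27 ± 0.20 (SD, n = 7) in knockout and -1.13 ± 0.24 (SD, n = 6) in knockout ND6 hearts. It was 1.75-fold lower in knockout (exact p = 0.000816, adjusted p = 0.00857), with no overlap, and 1.6-fold lower in knockout ND6 hearts (exact p = 0.00286, adjusted p = 0.015), where the highest heart, at -0.725, met the lowest wild type heart, at -0.728. Without wild type heart 23, 24 or 70 the adjusted p of this last difference was 0.0525. Within a single vector these log2 differences were between -0.94 and -0.48, and none passed after adjustment. No test of 3 against 4 hearts can give p under 0.0286. Knockout ND6 against wild type with the Ant1 vector, 3 hearts each, has fewer arrangements and so a higher smallest p.

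The ratio of Hk1 to Hk2 did not pass between genotypes over both vectors (log2 difference 0.18, exact p = 0.202, adjusted p = 0.398 for knockout against wild type). Its knockout hearts were split by vector, at -1.41 to -1.16 with the control vector and -2.11 to -1.80 with the Ant1 vector on the log2 scale. Pygb to Pygm was 1.29-fold lower in knockout than in wild type hearts at an unadjusted p of 0.0155 (exact) and did not pass (adjusted p = 0.0651). No ratio passed between knockout ND6 and knockout hearts, where the smallest exact p was 0.0343 (adjusted p = 0.12), for Slc16a3 to Slc16a1.

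**Figure D3:**
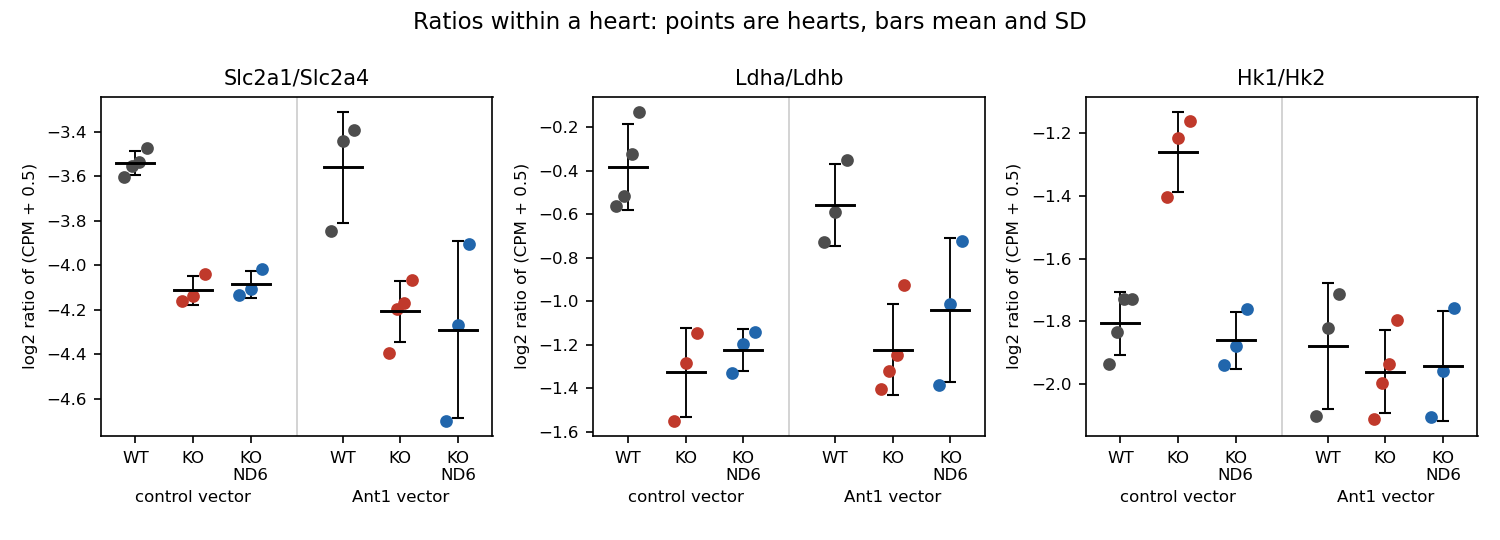
Log2 ratio of Slc2a1 to Slc2a4, Ldha to Ldhb and Hk1 to Hk2 in each heart, by genotype and vector. Points are hearts and bars are the mean and SD. In the left panel every wild type heart lies above the other genotypes within each vector. The middle panel shows the same with the control vector. With the Ant1 vector, wild type heart 83, at -0.728, lies just under knockout ND6 heart 37, at -0.725, in that panel. In the right panel the 3 knockout hearts with the control vector stand at -1.41 to -1.16.

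Adding the ND6 change to the loss of Ant1 was compared within each vector. With the control vector 2 members fell in knockout ND6 against knockout hearts and none rose, where 0.519% of all genes fell and 0.539% rose. Hk1 fell by 0.60 on the log2 scale (adjusted p = 0.00251), to levels within the range of the wild type hearts, and kept the call in every alternative. Gys1 lay at 119 to 134 CPM against 169 to 176 CPM in knockout hearts (log2 change -0.46 ± 0.11 (SE), adjusted p = 0.0495), and its call was lost without any single 1 of the 6 hearts and under other size factors. The count was 1 without each heart. With the Ant1 vector 0 members passed in edgeR's quasi-likelihood test, where 1.07% of all genes rose and 0.584% fell. At an unadjusted p under 0.05 there were 5 (Pfkfb1, Pfkfb3, Slc16a1, Slc16a3 and Ppp1r3c), where 2534 of all 15403 genes were, so the members' share is near that of all genes, with Ppp1r3c nearest (log2 change -0.47 ± 0.12 (SE), adjusted p = 0.0567), and DESeq2 called 2. Without heart 27 the count was 3 and without heart 37 it was 2.

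The Ant1 vector was compared with the control vector within each genotype, where library table and vector cannot be told apart. In wild type hearts 0 members passed in edgeR's quasi-likelihood test, with 0.0519% of all genes higher and 0.0649% lower. There 2 members and 1795 of all 15403 genes were under an unadjusted p of 0.05, the members being Pfkl (log2 change -0.31 ± 0.085 (SE), adjusted p = 0.134) and Ppp1r3c (log2 change -0.48 ± 0.12 (SE), adjusted p = 0.122), DESeq2 called 2, and without wild type heart 70 the count was 1. In knockout hearts 3 members fell and none rose, against 3.27% and 2.19% of all genes. Hk1 fell (log2 change -0.57 ± 0.085 (SE), adjusted p = 0.00182) in every alternative, Pfkfb1 fell (log2 change -1.28 ± 0.31 (SE), adjusted p = 0.0203) and Gys1 fell (log2 change -0.35 ± 0.10 (SE), adjusted p = 0.048). Pfkfb1 was lost without heart 35 or 38 or without heart 20 or 22 of the Ant1 vector, where the count was 1, and Gys1 without any 1 of 6 hearts. Without both hearts 27 and 37, which have 8 libraries each in tables of their own, the count was 5. In knockout ND6 hearts Ppp1r3c fell (log2 change -0.78 ± 0.13 (SE), adjusted p = 0.00277) and no member rose, against 0.779% and 1.75% of all genes, and the call was lost when hearts 61 and 91 were counted as Ant1 vector hearts (log2 change -0.41, adjusted p = 0.262).

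Whether the effect of genotype itself differed between vectors was tested as the difference of log2 changes. For the knockout effect 0 members passed in edgeR's quasi-likelihood test, where 0.221% and 0.279% of all genes were higher and lower, with 6 members and 2259 of all 15403 genes at an unadjusted p under 0.05, and 2 members called by DESeq2. For the knockout ND6 effect 0 passed, where 0.201% and 0.0714% of all genes did, with 3 members and 1615 of all 15403 genes at an unadjusted p under 0.05, and 0 members called by DESeq2. For the ND6 effect, knockout ND6 against knockout hearts, 1 member was higher and 1 lower, against 0.805% and 0.617% of all genes. These were Hk1 (log2 change 0.53 ± 0.13 (SE), adjusted p = 0.0375) and Ppp1r3c (log2 change -0.83 ± 0.18 (SE), adjusted p = 0.0248). The ND6 log2 change of Hk1 was -0.60 with the control vector and -0.063 with the Ant1 vector. That of Ppp1r3c was 0.36 with the control vector and -0.47 with the Ant1 vector. Leaving out Ant1 vector hearts 5, 8 or 22 or control vector hearts 20, 21, 22, 36 or 38 ended the call of Hk1, with adjusted p up to 0.105. Leaving out Ant1 vector hearts 5 or 8 or control vector hearts 20, 21 or 35 ended that of Ppp1r3c, with adjusted p up to 0.0786. When hearts 61 and 91 were counted as Ant1 vector hearts both calls ended, with adjusted p of 0.0703 and 0.475. Without knockout heart 27 the count was 4.

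Other genes of the pathway were taken from a list of 49, of which 44 were tested. In the 4 comparisons with wild type in the order above, 8, 7, 5 and 8 of them rose, where 8.19%, 6.71%, 5.37% and 10.8% of all genes rose, and 4, 4, 4 and 6 fell, where 6.23%, 5.97%, 4.53% and 8.71% of all genes fell. Ugp2, which makes the UDP-glucose that glycogen synthase uses (chr11:21321138-21371201), stood at 263, 301, 317 and 226 CPM in wild type, 627, 546 and 567 CPM in knockout and 583, 568 and 538 CPM in knockout ND6 hearts with the control vector. Levels of Ugp2 with the Ant1 vector were 294, 353 and 353 CPM, 731, 542, 541 and 445 CPM and 582, 608 and 816 CPM, again with every wild type heart below the others. It rose 2.10-fold in knockout (log2 change 1.07 ± 0.15 (SE), adjusted p = 4.12e-05) and 2.03-fold in knockout ND6 hearts (log2 change 1.02 ± 0.15 (SE), adjusted p = 7.61e-05) with the control vector, and 1.69-fold (log2 change 0.76 ± 0.15 (SE), adjusted p = 0.00239) and 2.01-fold (log2 change 1.00 ± 0.16 (SE), adjusted p = 0.00018) with the Ant1 vector.

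Pgm2 is a phosphoglucomutase symbol that mouse annotation releases have used for different genes, so no locus is given for it. It stood at 279, 263, 246 and 254 CPM in wild type and 350.1, 357 and 349.6 CPM in knockout hearts with the control vector (log2 change 0.43 ± 0.067 (SE), adjusted p = 0.000142), with no overlap.

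Ppp1r3b, another glycogen-targeting subunit of protein phosphatase 1 (chr8:35375739-35388139), had 180, 106, 64 and 170 reads in control vector wild type hearts and 105, 173 and 150 reads in those with the Ant1 vector. In the 13 Ant1-/- hearts it had 0 to 6 reads, and no fold is given at this depth. It was called lower in all 4 comparisons, with adjusted p from 7.79e-09 to 9.89e-08. Slc25a4, the gene deleted in these hearts, lies on the same chromosome (chr8:46206797-46211284), and no member lies on it. The part of that position in the Ppp1r3b reads was not tested. Between knockout ND6 and knockout hearts, 0 of the 44 genes passed with the control vector and Hif1a, a subunit of the hypoxia-inducible factor, rose with the Ant1 vector (log2 change 0.53 ± 0.095 (SE), adjusted p = 0.00516). Between vectors, Pgm2 and the phosphorylase kinase subunit gene Phka1 fell in knockout hearts (log2 change -0.27 ± 0.067 (SE), adjusted p = 0.0252 and log2 change -0.44 ± 0.12 (SE), adjusted p = 0.0391) and Tbc1d4, a regulator of GLUT4 traffic, rose in knockout ND6 hearts (log2 change 0.46 ± 0.11 (SE), adjusted p = 0.0291).

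**Figure D4:**
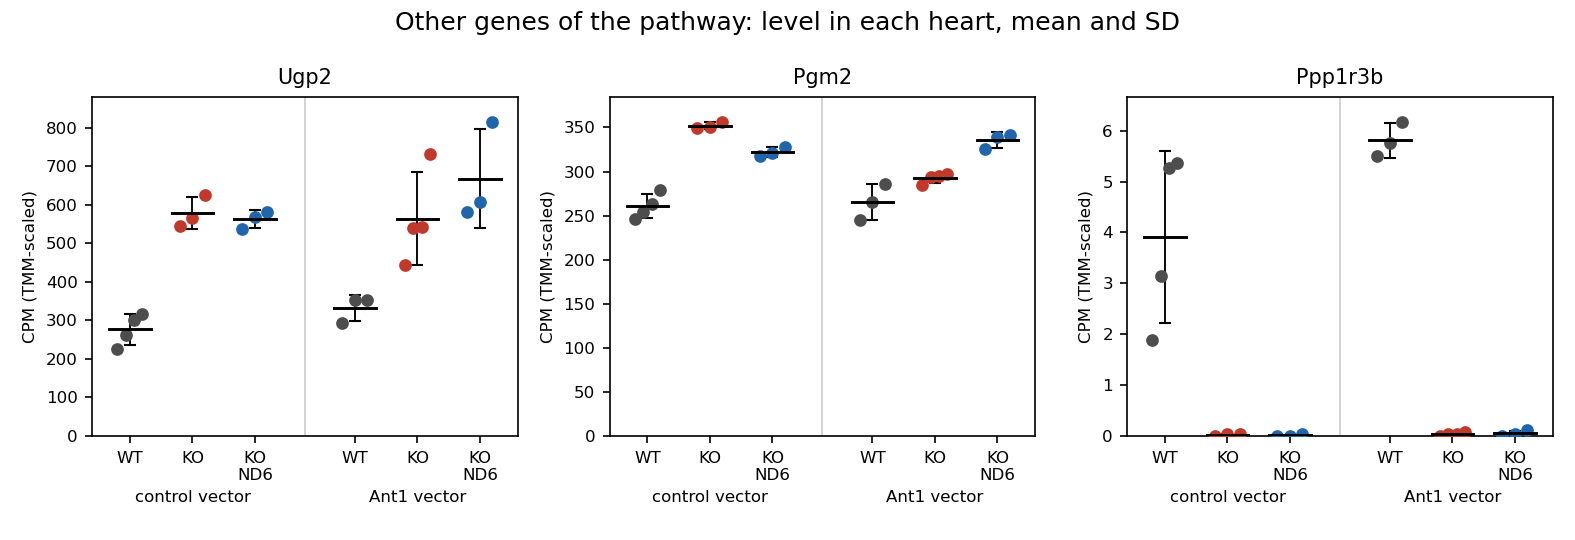
Level of 3 other genes of the pathway in each heart, in CPM on the vertical axis, by genotype and vector, with the mean and SD. Ugp2 is higher in all Ant1-/- hearts than in wild type hearts with the same vector, and Ppp1r3b is near 0 in the Ant1-/- hearts.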

How the data were processed

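RNA of mouse hearts was measured with amplicon libraries, and the authors deposited whole-number read counts per gene for each library. The genome build is mm10, per the submitters' processing notes, while an aligner, a counting tool or amplicon positions are not stated there or in the labels. Gene positions are from GENCODE and promoters from RefSeq on the same assembly. Libraries of 1 heart were summed, and 15403 genes passed the low-count filter. TMM factors lay between 0.9593 and 1.058. The 6 groups, and hearts 61 and 91 as a group of their own, were fitted together with edgeR 4.0.16 in R 4.3.3. The quasi-likelihood test was adjusted by Benjamini-Hochberg over all genes tested, with a threshold of 0.05. Hearts 61 and 91 entered no main comparison, but they did enter the low-count filter, the scaling and the estimate of spread. Alternatives used DESeq2 1.42.0 and limma 3.58.1, the latter with a within-heart correlation of 0.197. Log2 ratios of CPM used a pseudocount of 0.5 CPM. The scripts were tested on simulated data. Values in every heart are given for the 10 members with the smallest adjusted p among those called without overlap, and for their pair partners. Of other pathway genes, at most 3 per comparison with the smallest adjusted p are named. One gene that this rule names is not reported here. The members and lists were chosen with earlier results of these data known. Another 3 samples, of single nuclei, were left out. Read counts of amplified cDNA are not independent molecules.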

Additional observations from a re-analysis of the deposited data

Results flagged for a closer look

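Each of the 26 members was checked in the 2 groups of 4 hearts, which gave 52 checks on the same hearts. In 2 of the 52, 1 heart lay far from the other 3. Chance gives about 1 in 20, so these 2 are no more than chance gives. Slc2a1 was 22.793 CPM in knockout heart 27 with the Ant1 vector and 18.05 to 18.655 CPM in the other 3, a gap of 0.872 of the group's range, past the 95% critical value of Dixon's test. Tpi1 was 1174.1 CPM in control vector wild type heart 23 and 1067.3 to 1072.5 CPM in the others, a gap of 0.951 of the range. The effect of ND6 in Ant1-/- hearts differed between the vectors for 2 members by the test of that difference in edgeR. These were Hk1, by 0.534 on the log2 scale (adjusted p = 0.0375), and Ppp1r3c, by -0.826 (adjusted p = 0.0248). The Hk1 call was lost in 12 of 24 alternatives and that of Ppp1r3c in 6 of 24. Both were lost when hearts 61 and 91 were counted as Ant1 vector hearts.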

How the results depend on the processing

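Of 760 alternatives to the 46 calls of members, 631 kept the call in the same direction, 129 lost it and 0 reversed it, and 21 calls were kept in every alternative. The alternatives include the fit with each library as a replicate, which treats repeat libraries as separate hearts and is no check of a call. Counts of members called are given here in the order knockout, knockout ND6 against wild type and knockout ND6 against knockout with the control vector, the same 3 with the Ant1 vector, the vector in wild type, knockout and knockout ND6 hearts, and the vector difference in the knockout, knockout ND6 and ND6 effects. They were 8, 9, 2, 12, 9, 0, 0, 3, 1, 0, 0 and 2. With each library as a replicate, which treats repeat libraries as separate hearts, they were 17, 14, 10, 19, 16, 7, 4, 17, 11, 10, 4 and 8. With the library table as a covariate the first was 13, the third 9, the sixth 5 and the last 3 were 4, 1 and 6. The third and ninth were 1 and 2 with DESeq2 size factors, with upper quartile scaling and with libraries a and b alone, and under the last pair of settings the sixth was 1. With no filter the third was 1 and the last 1. With only the compared groups in the fit the third was 4, the fourth 6, the knockout-effect difference 1 and the last 1. With the DESeq2 test the sixth to ninth were 2, 2, 5 and 2 and the knockout-effect difference 2. Without hearts 27 and 37 the sixth, eighth and ninth were 3, 5 and 2 and the knockout-effect difference 3. With hearts 61 and 91 as Ant1 vector hearts the ninth and last were 0 and 0. Leaving out 1 heart at a time gave 6 to 8, 3 to 8, 1 to 1, 6 to 9, 8 to 10, 0 to 3, 0 to 1, 1 to 3, 1 to 1, 0 to 1, 0 to 0 and 0 to 4. Of the ratio tests 4 passed, 3 to 5 without 1 heart, and 0 within either vector alone, where fewer hearts bound the p. The cause of the other changes was not tested. Shares of all genes called under these other settings are not given here, so a moved count is no result particular to the members. No paired analysis was made, because a number names a heart within its group only and the labels used here give no pairing of hearts. Slc16a3 and Aldoc, at a few CPM, are the members whose depth limits a comparison most.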

Other observations

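Hearts 61 and 91, knockout ND6 hearts whose labels disagree on the vector, had 169.1 and 151.3 CPM of Slc25a4. Knockout and knockout ND6 hearts with the control vector had 0.22 to 2.03 CPM of it. With the Ant1 vector, knockout hearts had 174 to 241 CPM and knockout ND6 hearts 0.73 to 66.7 CPM. Levels in hearts 61 and 91 were 116.5 and 106.9 CPM for Hk1, 395.6 and 377.4 CPM for Ldha, 393.7 and 377.8 CPM for Slc16a1, 73.0 and 71.3 CPM for Gbe1, 993.8 and 900.7 CPM for Pgam2, 524.2 and 530.3 CPM for Ppp1r3c and 13.7 and 29.6 CPM for Pfkfb1. Ppp1r3c was 486 to 549 CPM in knockout ND6 hearts with the control vector and 269 to 356 CPM in those with the Ant1 vector.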
